A study of Mus musculus with 24 samples.

Results

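The Ier and Zfp36 immediate early genes of the mouse heart were followed here as 8 named genes, Ier2, Ier3, Ier5, Ier5l, Zfp36, Zfp36l1, Zfp36l2 and Otud1, out of 18820 genes measured. They were chosen by name, and each was read by 1 probe set, the one paired with that symbol alone. The tissue was left ventricle of male mice of 12 to 16 weeks of age, either Per2-/-, a whole-body knockout of the clock gene Period 2, or wildtype, with the strain given as BL6C57 throughout. Hearts in situ were made ischemic for 30 minutes and not reperfused (I30), were preconditioned by 4 rounds in which flow was stopped for 5 minutes and restored for 5 (IP0), were made ischemic for 30 minutes and then reperfused for 60 (I30R60), or were sham-operated, a group that the labels also call untreated controls. Each of the 8 groups, Per2-/- I30, IP0, I30R60 and sham and wildtype I30, IP0, I30R60 and sham, held 3 mice with 1 array per mouse. Every mouse, sham included, was anesthetized and catheterized, and its heart was flushed with cold saline before harvest. Values are log2 RMA signals of Affymetrix Mouse Gene ST arrays, so that a difference of 1 is a 2-fold change, and levels of different genes are not set against each other. A change was called where limma's adjusted p over the 18820 genes was below 0.05, and errors of changes are standard errors (SE).

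Immediate early genes are transcribed within minutes of a stimulus from promoters that need no new protein synthesis, and their transcripts are mostly short-lived. Zfp36 (tristetraprolin), Zfp36l1 and Zfp36l2 encode CCCH zinc finger proteins that bind AU-rich elements in the tails of cytokine and other unstable transcripts and recruit the machinery that removes the poly(A) tail. Ier2, Ier5 and Ier5l form one family of nuclear proteins, of which Ier5 is known to work with protein phosphatase 2A on the heat shock factor Hsf1. Ier3 shares the name but not the sequence family and is a stress-induced regulator of survival signaling, and Otud1 is a deubiquitinase of the ovarian tumor (OTU) class.

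Arrays of one group correlated at 0.981 or higher. The Per2 probe set did not separate the genotypes in sham hearts, at 5.69, 5.65 and 5.63 in Per2-/- sham hearts against 5.33, 5.94 and 6.10 in wildtype sham hearts (difference -0.13, SE 0.27, adjusted p = 0.966). After I30 it read 5.30, 4.94 and 5.04 in Per2-/- hearts against 6.44, 6.31 and 5.89 in wildtype hearts, lower without overlap but not called (difference -1.12, SE 0.27, adjusted p = 0.0643). It overlapped between genotypes after IP0, at 5.19, 5.65 and 5.60 in Per2-/- hearts against 4.66, 5.36 and 5.32 in wildtype hearts, and after I30R60, at 5.58, 5.99 and 6.25 in Per2-/- hearts against 5.51, 6.54 and 6.71 in wildtype hearts. Where this probe set lies relative to the deleted part of the allele is not given in the sources used here, so the genotypes below are those of the labels. Heart muscle transcripts marked the tissue alike, with a list mean of 12.6 to 12.8 on each array. Atrial transcripts stood high on 4 arrays, Per2-/- sham replicate 3, Per2-/- IP0 replicate 3 and wildtype sham replicates 1 and 2, with a list mean of 10.5, 9.16, 8.52 and 6.69. For the genes followed here, calls against sham hearts of the same genotype and between genotypes in sham hearts are given below with and without them. Leaving these 4 arrays out keeps 1 wildtype sham array. Results for other genes and the list means of cell markers are given only with these arrays, and their dependence on them was not tested. In RNA of whole tissue, a change in the share of a cell type and a change in RNA per cell cannot be told apart.

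Promoter sequence was in the RefSeq table (build GRCm38.p6) for 6 of the 8 genes, Ier3, Ier5, Ier5l, Zfp36, Zfp36l1 and Otud1, as windows of 300 bases that run from 250 bases before to 50 bases after the transcription start. The 3 windows shown each hold a known inducible or clock motif close to the start of a gene on which the results turn, and give the 120 bases before the start, 5′ to 3′ on the gene's strand, with the motif in capitals. Otud1 (chr2:19657611-19657730, plus strand) has the E-box CACGTG, the element bound by the clock factors Clock and Bmal1, at 54 bases before the start. Zfp36 (chr7:28379229-28379348, minus strand) has a CArG box, the element of serum response factor, at 58 bases before the start, and Ier3 (chr17:35821593-35821712, plus strand) has a match to the NF-kB site at 92 bases before it.
Otud1: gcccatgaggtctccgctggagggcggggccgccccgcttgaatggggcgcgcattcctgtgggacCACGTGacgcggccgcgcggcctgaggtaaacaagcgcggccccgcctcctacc
Zfp36: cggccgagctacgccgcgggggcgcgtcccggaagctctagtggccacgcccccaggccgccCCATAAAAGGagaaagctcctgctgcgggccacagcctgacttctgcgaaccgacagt
Ier3: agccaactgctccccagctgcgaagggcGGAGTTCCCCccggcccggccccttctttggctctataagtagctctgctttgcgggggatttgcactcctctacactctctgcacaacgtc
On both strands of all 32851 promoter windows of this length, the E-box was found in 7.15%, the CArG box in 1.63% and the NF-kB site in 4.51%. Of the other motifs searched, the heat shock element GAANNTTC (7.86% of all windows) was in Ier5l, the AP-1 site TGANTCA (7.81%) was in Zfp36l1, and the cyclic AMP element TGACGTCA (1.79%) was in none of the 6. None of the motifs printed in capitals overlapped another motif searched. The pairs of gene and motif shown were picked with the results in view. Binding at these motifs and their part in the changes below were not tested.

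Between 0 and 7 of the 8 genes were called higher than in sham hearts, depending on treatment and genotype, and none was called lower. In Per2-/- hearts, 0 members were called higher after I30 (0% of all genes), 3 after IP0 (0.117% of all genes) and 5 after I30R60 (2.78% of all genes). In wildtype hearts, 3 members were called higher after I30 (1.20% of all genes), 6 after IP0 (0.521% of all genes) and 7 after I30R60 (1.66% of all genes). The median change of the 8 genes was -0.04, 0.39 and 1.09 after I30, IP0 and I30R60 in Per2-/- hearts, beside -0.01, -0.02 and -0.04 over all genes. The corresponding medians in wildtype hearts were 0.34, 0.99 and 1.37, beside 0.01, 0.00 and -0.02 over all genes. Read as non-overlap, all 3 treated hearts lay above all 3 sham hearts for 0, 5 and 5 members in Per2-/- mice (5.38%, 6.38% and 8.32% of all genes) and for 4, 6 and 8 members in wildtype mice (11.9%, 9.80% and 8.04% of all genes). With both genotypes averaged, 5 members were called higher after IP0 (1.02% of all genes), Ier3, Ier5, Zfp36, Zfp36l1 and Otud1, and 7 after I30R60 (4.29% of all genes), that is all but Zfp36l2. For Per2-/- I30, 0 members reached an unadjusted p under 0.05 in limma, as did 1343 of all 18820 genes, and 0 by the methods' t-test, as did 1250 of all genes, so that 0 of 8 is close to the background.

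**Figure D1:**
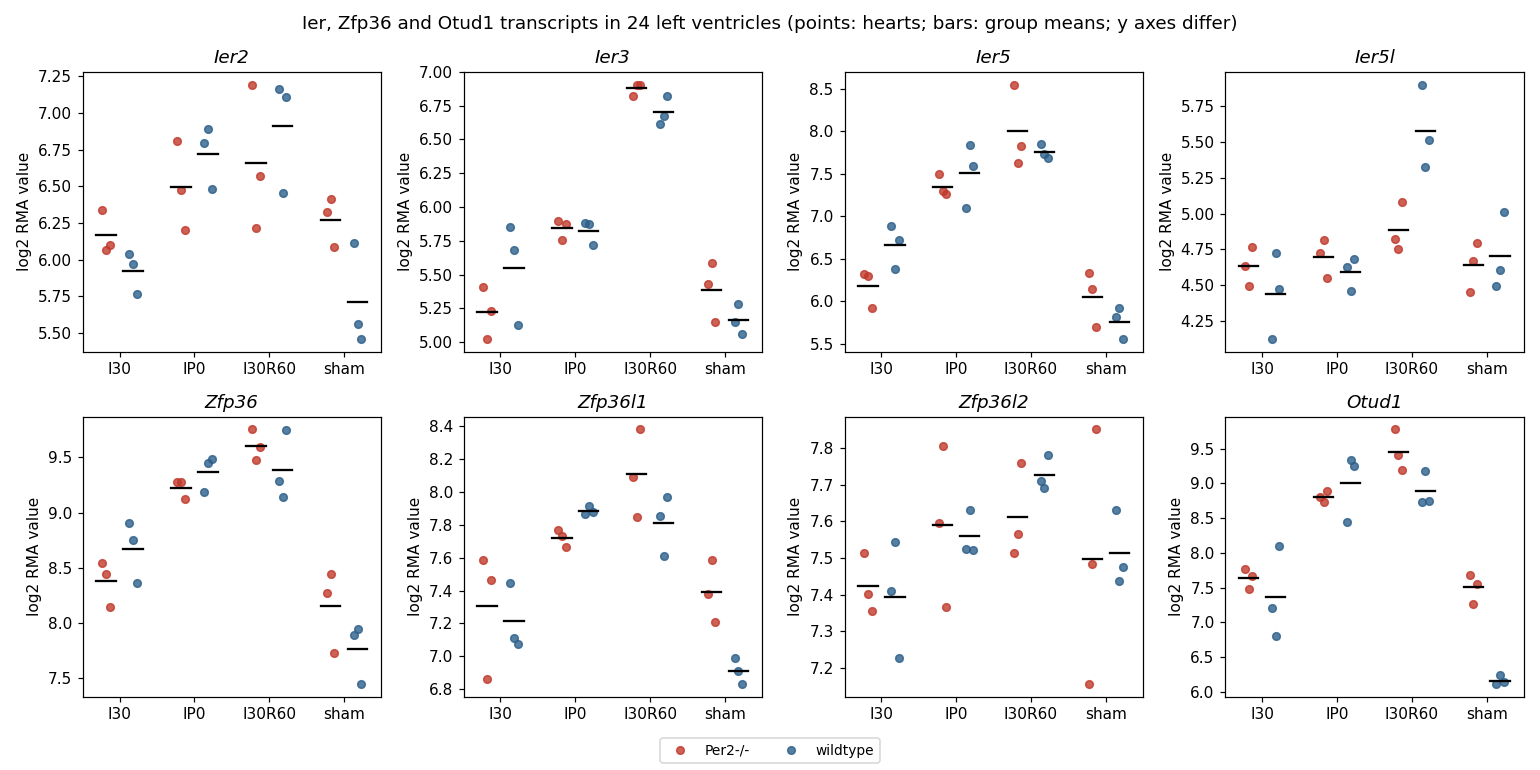
Log2 RMA value (y axes, scaled per gene) of the 8 genes in each of 24 hearts by treatment (x axes), Per2-/- in red and wildtype in blue; points are hearts and bars are group means of 3. The I30R60 and IP0 points of Ier5, Zfp36 and Otud1 lie above the sham points of the same genotype, while the Zfp36l2 points of all groups lie between 7.16 and 7.85.

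Zfp36 rose after preconditioning and after reperfusion in both genotypes, about 2- to 3-fold. After I30R60 it read 9.75, 9.47 and 9.59 in Per2-/- hearts against 8.27, 8.44 and 7.73 in Per2-/- sham hearts, and 9.28, 9.14 and 9.75 in wildtype hearts against 7.89, 7.95 and 7.45 in wildtype sham hearts. After IP0 it read 9.28, 9.28 and 9.12 in Per2-/- hearts and 9.18, 9.45 and 9.48 in wildtype hearts. Each of these 12 treated hearts lay above each sham heart of either genotype. The I30R60 change was 1.46 (SE 0.19, adjusted p = 7.02e-05) in Per2-/- hearts and 1.63 (SE 0.19, adjusted p = 2.70e-05) in wildtype hearts. The IP0 change was 1.08 (SE 0.19, adjusted p = 0.0161) in Per2-/- hearts and 1.61 (SE 0.19, adjusted p = 0.000144) in wildtype hearts. After I30 alone Zfp36 read 8.54, 8.44 and 8.14 in Per2-/- hearts, overlapping their sham hearts (change 0.23, SE 0.19, adjusted p = 0.833), and 8.91, 8.75 and 8.37 in wildtype hearts, all above wildtype sham hearts (change 0.91, SE 0.19, adjusted p = 0.0198). It was the 1 member called when both genotypes were averaged after I30 (0.792% of all genes called higher), at 0.57 (SE 0.13, adjusted p = 0.0415).

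Zfp36l1, which shares the zinc fingers and the decay function of Zfp36, rose less than 2-fold. After I30R60 it read 8.09, 7.84 and 8.38 in Per2-/- hearts against 7.38, 7.59 and 7.21 in Per2-/- sham hearts, and 7.85, 7.61 and 7.97 in wildtype hearts against 6.99, 6.91 and 6.83 in wildtype sham hearts. The groups did not overlap in either genotype, with changes of 0.71 (SE 0.16, adjusted p = 0.0114) in Per2-/- hearts and 0.90 (SE 0.16, adjusted p = 0.00264) in wildtype hearts. The call in Per2-/- hearts was lost without Per2-/- sham replicate 3 or Per2-/- I30R60 replicate 3 (adjusted p = 0.0696 and 0.0703). After IP0 it read 7.77, 7.73 and 7.67 in Per2-/- hearts, a change of 0.33 (SE 0.16, adjusted p = 0.614), and 7.86, 7.91 and 7.88 in wildtype hearts, a change of 0.97 (SE 0.16, adjusted p = 0.00430). The 3 wildtype IP0 hearts lay close together and above all 6 sham hearts. Zfp36l2, the family member known for its role in blood and lymphoid progenitor cells, was called in none of the 22 comparisons. Its group means ran between 7.39 (wildtype I30) and 7.73 (wildtype I30R60), its change after I30R60 was 0.12 (95% interval -0.17 to 0.40) in Per2-/- hearts and 0.21 (95% interval -0.07 to 0.50) in wildtype hearts, and its lowest and highest values, 7.16 and 7.85, were both in Per2-/- sham hearts. The 3 wildtype I30R60 hearts, at 7.71, 7.69 and 7.78, lay just above the wildtype sham hearts, at 7.63, 7.44 and 7.47. Whether probes of one Zfp36 gene also read another was not tested.

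Ier5 rose up to 4-fold and in both genotypes. After I30R60 it read 8.55, 7.63 and 7.83 in Per2-/- hearts against 6.33, 6.14 and 5.69 in Per2-/- sham hearts, and 7.85, 7.73 and 7.68 in wildtype hearts against 5.81, 5.92 and 5.56 in wildtype sham hearts. After IP0 it read 7.50, 7.30 and 7.26 in Per2-/- hearts and 7.10, 7.85 and 7.60 in wildtype hearts. The 12 hearts with IP0 or I30R60 all lay above the 6 sham hearts. The change after I30R60 was 1.95 (SE 0.22, adjusted p = 1.43e-05) in Per2-/- hearts and 2.00 (SE 0.22, adjusted p = 1.23e-05) in wildtype hearts, and after IP0 it was 1.29 (SE 0.22, adjusted p = 0.0121) in Per2-/- hearts and 1.75 (SE 0.22, adjusted p = 0.000200) in wildtype hearts. After I30 Ier5 read 6.31, 6.30 and 5.92 in Per2-/- hearts, overlapping their sham hearts (change 0.12, SE 0.22, adjusted p = 0.930), and 6.89, 6.38 and 6.72 in wildtype hearts, above every wildtype sham heart (change 0.90, SE 0.22, adjusted p = 0.0356).

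Ier2, a nuclear protein of the same family and a classic serum-induced transcript, rose about 2-fold after IP0 and I30R60 in wildtype hearts. After I30R60 it read 7.19, 6.22 and 6.57 in Per2-/- hearts against 6.32, 6.41 and 6.08 in Per2-/- sham hearts, and 7.16, 6.45 and 7.10 in wildtype hearts against 6.11, 5.56 and 5.46 in wildtype sham hearts. The Per2-/- groups overlapped and the wildtype groups did not, with changes of 0.39 (SE 0.23, adjusted p = 0.406) in Per2-/- hearts and 1.20 (SE 0.23, adjusted p = 0.00461) in wildtype hearts. After IP0 the values were 6.81, 6.47 and 6.20 in Per2-/- hearts, a change of 0.22 (SE 0.23, adjusted p = 0.873), and 6.79, 6.89 and 6.48 in wildtype hearts, a change of 1.01 (SE 0.23, adjusted p = 0.0388). The difference between these 2 changes was not called, and the Per2-/- sham hearts averaged 0.56 more than the wildtype sham hearts (SE 0.23, adjusted p = 0.569), with 1 of 3 values below the highest wildtype sham value. After I30 it read 6.34, 6.07 and 6.10 in Per2-/- hearts and 6.04, 5.97 and 5.76 in wildtype hearts, changes of -0.10 and 0.21, neither called.

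Ier5l, the Ier5-like member of that family, rose in wildtype I30R60 hearts and was called in no other treated group against sham. It read 4.82, 4.75 and 5.08 in Per2-/- I30R60 hearts against 4.45, 4.67 and 4.79 in Per2-/- sham hearts, and 5.90, 5.33 and 5.51 in wildtype I30R60 hearts against 4.50, 4.61 and 5.01 in wildtype sham hearts. The 3 wildtype I30R60 hearts were the 3 highest of all 24, and the wildtype groups did not overlap. The change was 0.25 (SE 0.16, adjusted p = 0.477) in Per2-/- hearts and 0.88 (SE 0.16, adjusted p = 0.00388) in wildtype hearts. After I30 and IP0 its 4 changes lay between -0.27 and 0.06 and none was called. Without the 4 arrays with atrial transcripts, when the 1 wildtype sham array left is the one at 5.01, the wildtype I30R60 change was 0.57 (adjusted p = 0.414).

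Ier3 rose close to 3-fold after reperfusion and less after preconditioning. After I30R60 it read 6.83, 6.91 and 6.91 in Per2-/- hearts against 5.43, 5.58 and 5.15 in Per2-/- sham hearts, and 6.61, 6.67 and 6.82 in wildtype hearts against 5.15, 5.29 and 5.06 in wildtype sham hearts. These 6 reperfused hearts lay above each of the other 18 hearts. The change was 1.49 (SE 0.14, adjusted p = 3.10e-06) in Per2-/- hearts and 1.54 (SE 0.14, adjusted p = 2.55e-06) in wildtype hearts. After IP0 it read 5.90, 5.76 and 5.88 in Per2-/- hearts, a change of 0.46 (SE 0.14, adjusted p = 0.325), and 5.88, 5.87 and 5.72 in wildtype hearts, a change of 0.66 (SE 0.14, adjusted p = 0.0347). After I30 it read 5.41, 5.02 and 5.23 in Per2-/- hearts (change -0.17, SE 0.14, adjusted p = 0.843) and 5.85, 5.68 and 5.13 in wildtype hearts (change 0.39, SE 0.14, adjusted p = 0.149), overlapping sham hearts in both genotypes. Without wildtype I30 replicate 3 the wildtype I30 change was 0.60 and was called (adjusted p = 0.0259), and with each array centred on its median it was 0.49 and was called (adjusted p = 0.0493).

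Otud1 had the widest range of the 8 genes over the 24 hearts, 3.66 on the log2 scale. After I30R60 it read 9.77, 9.41 and 9.19 in Per2-/- hearts against 7.69, 7.27 and 7.56 in Per2-/- sham hearts, and 8.74, 9.18 and 8.75 in wildtype hearts against 6.12, 6.24 and 6.14 in wildtype sham hearts. After IP0 it read 8.81, 8.73 and 8.89 in Per2-/- hearts and 8.45, 9.33 and 9.25 in wildtype hearts. The 12 hearts with IP0 or I30R60 lay above all 6 sham hearts, and the 3 wildtype sham hearts were the lowest of all 24. The I30R60 change was 1.95 (SE 0.25, 3.87-fold, adjusted p = 7.15e-05) in Per2-/- hearts and 2.72 (SE 0.25, 6.60-fold, adjusted p = 2.47e-06) in wildtype hearts. The IP0 change was 1.31 (SE 0.25, 2.47-fold, adjusted p = 0.0375) in Per2-/- hearts and 2.85 (SE 0.25, 7.19-fold, adjusted p = 3.07e-06) in wildtype hearts. After I30 Otud1 read 7.77, 7.48 and 7.67 in Per2-/- hearts, overlapping their sham hearts (change 0.13, SE 0.25, adjusted p = 0.938), and 7.20, 6.80 and 8.11 in wildtype hearts, with a range of 1.30 that lay above wildtype sham hearts (change 1.20, SE 0.25, adjusted p = 0.0208).

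**Figure D2:**
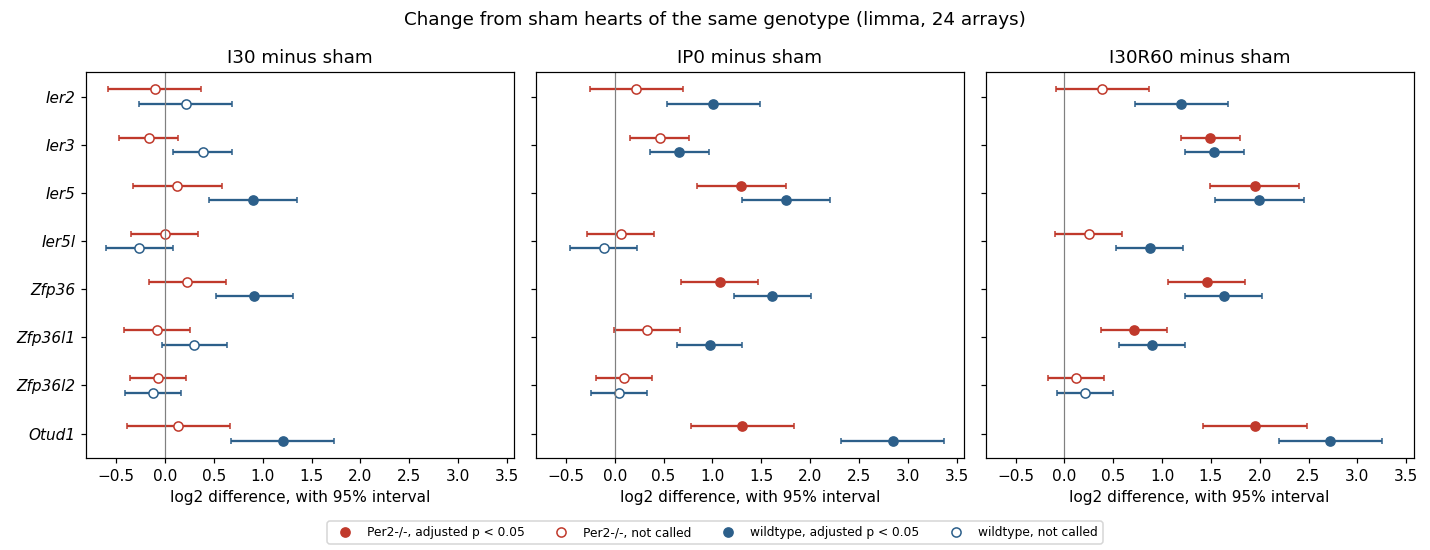
Log2 difference from sham hearts of the same genotype (x axes, with 95% intervals from limma) for the 8 genes (rows) after I30, IP0 and I30R60, Per2-/- in red above wildtype in blue; filled points have an adjusted p below 0.05 and open points do not. After I30 the Per2-/- points lie between -0.17 and 0.23 and none is filled, and after I30R60 the filled points run to 1.95 in Per2-/- hearts and 2.72 in wildtype hearts.

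The calls after I30 and IP0 depended on single arrays more than those after I30R60. The 3 calls in wildtype I30 hearts (Ier5, Zfp36, Otud1) each ended when 1 array was left out, among wildtype I30 replicates 1 and 3 and wildtype sham replicates 1, 2 and 3, with an adjusted p of 0.0550 to 0.119 and a change of 0.76 to 1.19. In Per2-/- IP0 hearts the Ier5 call ended without Per2-/- sham replicate 3 or Per2-/- IP0 replicate 1 or 2 (adjusted p up to 0.0884), the Zfp36 call without any of these or Per2-/- IP0 replicate 3 (up to 0.101), and the Otud1 call without any of the 6 arrays compared, Per2-/- I30 replicate 3 or any wildtype sham array (up to 0.170). In wildtype IP0 hearts the Ier3 call ended without any of the 6 arrays compared (adjusted p up to 0.148), and the Ier2 call without wildtype sham replicate 2 or 3, any wildtype IP0 array, Per2-/- I30 replicate 3, Per2-/- sham replicate 1 or Per2-/- IP0 replicate 2 (up to 0.177). The Zfp36 call over both genotypes after I30 ended without 9 of the 12 arrays compared, those other than wildtype I30 replicate 3, Per2-/- I30 replicate 3 and Per2-/- sham replicate 2 (up to 0.0870). The 7 calls after I30R60 in wildtype hearts, and those of Ier3, Ier5, Zfp36 and Otud1 in Per2-/- hearts, held without each of the 24 arrays in turn. Without the 4 arrays with atrial transcripts together, the calls that held were Ier5, Zfp36 and Otud1 after IP0 in wildtype hearts (1.96, 1.93 and 2.87), Ier2, Ier3, Ier5, Zfp36 and Otud1 after I30R60 in wildtype hearts and Ier3, Ier5, Zfp36 and Otud1 after I30R60 in Per2-/- hearts, and no call held after I30 or in Per2-/- IP0 hearts.

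The treatments also differed from each other. In Per2-/- hearts, I30R60 was above I30 for 5 members (3.69% of all genes called higher), Ier3, Ier5, Zfp36, Zfp36l1 and Otud1, by 0.80 to 1.82, and IP0 was above I30 for 1 member (0.138% of all genes), Ier5, by 1.17 (adjusted p = 0.0252). In wildtype hearts, I30R60 was above I30 for 7 members (3.24% of all genes), that is all but Zfp36l2, by 0.60 to 1.52, and IP0 was above I30 for 4 members (1.76% of all genes), Ier5, Zfp36, Zfp36l1 and Otud1, by 0.67 to 1.64. The 3 IP0 hearts and the 3 I30 hearts did not overlap for 5 members in each genotype (9.82% of all genes in Per2-/- and 12.9% in wildtype hearts). Ier3 was the 1 member called between I30R60 and IP0 in Per2-/- hearts (1.65% of all genes), by 1.03 (SE 0.14, adjusted p = 0.000406), and Ier3 by 0.88 (SE 0.14, adjusted p = 0.00431) and Ier5l by 0.99 (SE 0.16, adjusted p = 0.00444) were called in wildtype hearts (0.919% of all genes). Zfp36, Zfp36l1 and Otud1 differed by -0.12 to 0.02 between I30R60 and IP0 in wildtype hearts, where the 95% intervals reached from -0.65 to 0.41. In Per2-/- hearts Otud1 differed by 0.65 (SE 0.25, adjusted p = 0.201), Zfp36 by 0.38 (SE 0.19, adjusted p = 0.333) and Zfp36l1 by 0.38 (SE 0.16, adjusted p = 0.235), with the 3 I30R60 hearts above the 3 IP0 hearts for 5 members (8.80% of all genes) and none of these 3 called.

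Leaving out 1 array ended several of these calls between treatments. For wildtype I30R60 over I30, Ier2, Zfp36 and Zfp36l1 lost their calls without one or other of wildtype I30 replicates 2 and 3 and wildtype I30R60 replicates 1 and 3 (adjusted p of 0.0540 to 0.140). For wildtype IP0 over I30, Ier5, Zfp36 and Zfp36l1 lost theirs without at least 1 of the 6 arrays compared (up to 0.142), and Zfp36, at an adjusted p of 0.0488, also without 12 arrays of other groups, which enter only the estimate of the spread. The Ier5 call for Per2-/- IP0 over I30 ended without Per2-/- I30 replicate 2 or 3 or any Per2-/- IP0 array (up to 0.119).

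Between genotypes, 1 member was called, Otud1 in sham hearts (0.143% of all genes called higher). The Otud1 values printed above put all 3 Per2-/- sham hearts above all 3 wildtype sham hearts, with a mean of 7.50 (SD 0.21, n = 3) in Per2-/- and 6.16 (SD 0.06, n = 3) in wildtype sham hearts, a difference of 1.34 (SE 0.25, 2.53-fold, adjusted p = 0.0218). The adjusted p was 0.0599 to 0.135 without each one of these 6 arrays, with a difference of 1.25 to 1.46. Without the 4 arrays with atrial transcripts the difference was 1.34, now between 2 Per2-/- arrays and 1 wildtype array (adjusted p = 0.522). Zfp36l1 was the other member without overlap in sham hearts (8.35% of all genes had all Per2-/- sham arrays above), at 0.48 (SE 0.16, adjusted p = 0.394). After I30, IP0 and I30R60, 0 members were called between genotypes (0.664%, 0.0797% and 0.175% of all genes were called in either direction), with 2, 0 and 2 at an unadjusted p under 0.05 in limma, as were 2310, 1095 and 1568 of all 18820 genes, and 0, 1 and 1 by the methods' t-test, as were 1766, 1134 and 1192 of all genes. Otud1 differed by 0.27 after I30 (95% interval -0.26 to 0.80), -0.20 after IP0 (-0.73 to 0.33) and 0.57 after I30R60 (0.04 to 1.10). Ier5l, lower in all 3 Per2-/- I30R60 hearts than in the 3 wildtype I30R60 hearts (6.61% of all genes), differed by -0.69 (SE 0.16, adjusted p = 0.109). Ier3 and Otud1 were higher in all 3 Per2-/- I30R60 hearts than in the 3 wildtype I30R60 hearts (5.80% of all genes), by narrow margins. The lowest Per2-/- value was 6.83 against a highest wildtype value of 6.82 for Ier3, and 9.19 against 9.18 for Otud1. Without wildtype I30 replicate 3, Ier3 was called lower in Per2-/- than in wildtype I30 hearts, by -0.54 (adjusted p = 0.0433), and by -0.33 (adjusted p = 0.345) with it.

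**Figure D3:**
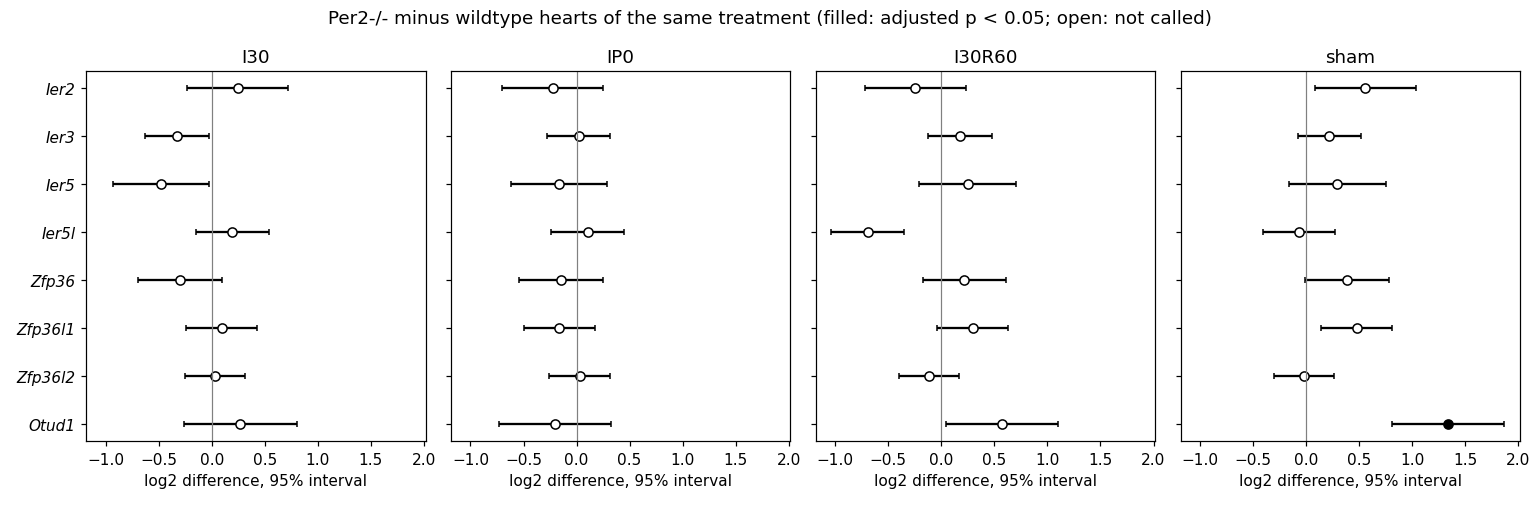
Log2 difference of Per2-/- minus wildtype hearts of the same treatment (x axes, with 95% intervals from limma) for the 8 genes (rows) in I30, IP0, I30R60 and sham hearts. The 1 filled point, with an adjusted p below 0.05, is Otud1 in sham hearts at 1.34, and Ier5l in I30R60 hearts lies at -0.69.

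Whether the response to a treatment differed between genotypes was tested as the change in Per2-/- hearts minus the change in wildtype hearts. For I30, IP0 and I30R60, 0 members were called (0% of all genes in each), and 4, 3 and 3 had an unadjusted p under 0.05 in limma, as did 1336, 905 and 1034 of all 18820 genes. The difference in response of Otud1 was -1.07 (SE 0.36, adjusted p = 0.531) for I30, -1.54 (SE 0.36, adjusted p = 0.672) for IP0 and -0.77 (SE 0.36, adjusted p = 0.897) for I30R60. These 3 values and the difference in sham hearts share the same 6 sham arrays. The 95% interval of the difference in response ran from -1.46 to -0.11 for Ier2 after IP0, from -1.11 to -0.14 for Ier5l after I30R60 and from -0.69 to 0.59 for Ier5 after I30R60.

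Markers of other cells moved with part of these results. The mean over 12 neutrophil transcripts was 5.01, 4.67 and 5.44 in Per2-/- I30R60 hearts against 3.72, 3.67 and 3.32 in Per2-/- sham hearts, and 5.33, 4.48 and 4.47 in wildtype I30R60 hearts against 3.88, 3.86 and 3.83 in wildtype sham hearts, with 8 of 12 called higher in Per2-/- and 3 of 12 in wildtype hearts. After IP0, with Ier5, Zfp36 and Otud1 called in both genotypes, the same mean was 3.90 to 4.14 in Per2-/- hearts and 3.90 to 4.06 in wildtype hearts. These values lay above all sham hearts of the same genotype. In both genotypes 0 of 12 were called after IP0, where 0.159% (Per2-/-) and 0.850% (wildtype) of all genes were called in either direction. In wildtype I30 hearts the neutrophil mean was 5.25, 4.32 and 3.96 (0 of 12 called). Ier3 (5.85, 5.68 and 5.13), Zfp36 (8.91, 8.75 and 8.37), Ier2 and Zfp36l1 fell in the same order there, while Ier5, Ier5l, Zfp36l2 and Otud1 did not. In these hearts the 6 lung epithelium transcripts averaged 4.98, 4.24 and 3.69 against 2.97 to 3.04 in wildtype sham hearts, with 4 of 6 called higher. Replicate 3, without which Ier3 was called between wildtype I30 and sham and between genotypes after I30, had the lowest neutrophil and lung epithelium means. The middle spread of the arrays (interquartile range over genes) was also narrower there, 3.76 to 3.87 in wildtype I30 hearts against 4.01 to 4.11 in wildtype sham hearts. The mean over 7 fibroblast transcripts was lower without overlap after IP0, at 7.32, 7.43 and 7.49 in Per2-/- IP0 hearts against 7.65, 7.56 and 8.10 in Per2-/- sham hearts, and at 7.44, 7.40 and 7.43 in wildtype IP0 hearts against 7.74, 7.46 and 7.62 in wildtype sham hearts, with 0 of 7 called. The mean over 8 macrophage transcripts was 6.74, 6.83 and 6.80 in wildtype IP0 hearts against 7.14, 6.84 and 7.01 in wildtype sham hearts (0 of 8 called), and that over 8 endothelial transcripts was 8.70, 8.70 and 8.78 in wildtype I30 hearts against 9.06, 8.89 and 8.92 in wildtype sham hearts (1 of 8 called lower). After I30R60, 2 of the 8 endothelial transcripts were called lower in Per2-/- hearts and 0 in wildtype hearts. The part of these transcripts and of the spread of the arrays in the I30, IP0 and I30R60 changes was not tested.

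**Figure D4:**
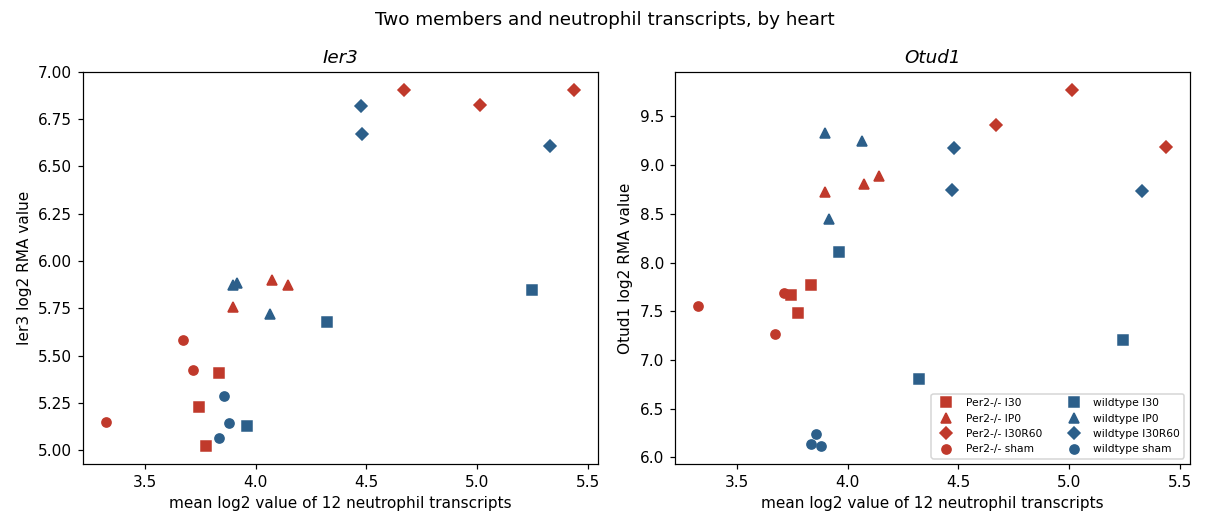
Log2 RMA value of Ier3 (left) and Otud1 (right) against the mean log2 value of 12 neutrophil transcripts (x axes) in each of 24 hearts, with genotype by color and treatment by symbol. The 6 IP0 hearts lie at 3.90 to 4.14 on the neutrophil axis, and their Otud1 values, 8.45 to 9.33, lie above the sham and I30 hearts.

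The genes around these members were read from lists of names. As the background for each list, 0%, 0.159% and 4.79% of all genes were called in either direction after I30, IP0 and I30R60 in Per2-/- hearts. The corresponding shares in wildtype hearts were 2.39%, 0.850% and 2.47%. Of 53 other immediate early genes measured, 0, 8 and 35 were called higher after I30, IP0 and I30R60 in Per2-/- hearts, with medians of 0.00, 0.54 and 0.93, and 3, 20 and 37 in wildtype hearts, with medians of 0.07, 0.74 and 1.09; 2 were called lower, Egr2 and Egr3 after wildtype I30, by -1.18 and -0.99, and the 3 called higher there were Jun, Atf3 and Cebpd (these apart from Jun named after their values were seen). The AP-1 subunit Fos changed by 2.11 (SE 0.36, adjusted p = 0.00109) in Per2-/- and 3.51 (SE 0.36, adjusted p = 6.18e-06) in wildtype I30R60 hearts. Jun, its partner, changed by 1.82 (SE 0.18, adjusted p = 3.34e-06) in Per2-/- and 2.68 (SE 0.18, adjusted p = 2.52e-08) in wildtype I30R60 hearts. The zinc finger factor Egr1 changed by 0.64 (SE 0.11, adjusted p = 0.00175) and 1.16 (SE 0.11, adjusted p = 4.59e-06) in the same order. These comparisons share the sham arrays with those of the members.

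About as many transcripts known to carry AU-rich elements bound by Zfp36 proteins were called higher as were not in I30R60 hearts. In these hearts Zfp36 itself was also higher than in sham hearts. Some of the listed transcripts gave low signals, which RMA compresses. In Per2-/- sham hearts Il10, Il23a, Il2, Ifng and Csf2, named after their values were seen, averaged 2.72, 2.25, 2.28, 2.58 and 2.84. The part of low signal in the counts was not tested. A transcript that was not called may still have risen. Of 20 measured, 2 of them (Fos and Myc) also in the immediate early list, 0, 0 and 10 were called higher after I30, IP0 and I30R60 in Per2-/- hearts, with medians of 0.13, 0.40 and 0.97, and 0, 2 and 9 in wildtype hearts, with medians of 0.24, 0.68 and 0.80. The 2 after wildtype IP0 were Fos and Ptgs2 (cyclooxygenase-2), and the hearts with I30R60 also had the neutrophil values given above, whose part was not tested. The cytokine Il6 changed by 4.03 (SE 0.47, adjusted p = 2.27e-05) in Per2-/- and 4.24 (SE 0.47, adjusted p = 1.54e-05) in wildtype I30R60 hearts. Tnf, the best known target of tristetraprolin, changed by 2.04 (SE 0.38, adjusted p = 0.00239) and 1.58 (SE 0.38, adjusted p = 0.0258) in the same order, and the neutrophil chemokine Cxcl2 by 2.89 (SE 0.66, adjusted p = 0.0130) and 3.05 (SE 0.66, adjusted p = 0.0122). Of 19 deadenylation and decapping genes, none was called in Per2-/- hearts after any treatment, and 1, Cnot9, named after its value was seen, was called lower after I30R60 in wildtype hearts, by -0.43. The scaffold Cnot1 changed by -0.16 in Per2-/- and -0.11 in wildtype I30R60 hearts, the deadenylase Cnot7 by -0.06 and -0.17, and the decapping enzyme Dcp2 by -0.34 and -0.03, none of them called. Of 6 genes of the p38 and MK2 kinase pathway that acts on Zfp36 protein, 1 was called, the kinase Mapk14 (p38 alpha), lower by -0.28 (SE 0.08, adjusted p = 0.0457) in Per2-/- I30R60 hearts. Its targets Mapkapk2 and Mapkapk3 changed by -0.12 and 0.00 there.

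Other partners of the 8 genes moved in part. Among 10 other proteins that bind AU-rich or stem-loop elements, 2 were called higher in Per2-/- I30R60 hearts, Zc3h12a and Rc3h1 (roquin-1, 0.53, named after its value was seen), and 1, Zc3h12a, in wildtype I30R60 hearts. The endonuclease Zc3h12a (regnase-1) changed by 1.28 (SE 0.16, adjusted p = 5.11e-05) in Per2-/- and 1.01 (SE 0.16, adjusted p = 0.000994) in wildtype I30R60 hearts, while the stabilizing protein Elavl1 changed by -0.09 and -0.05 and Hnrnpd by -0.11 and 0.02, none of these 4 values called. Of the Hsf1 heat shock list, on whose factor Ier5 acts, Hsf1 itself, Hspa1a, Hspa1b, Hsp90ab1 and Cryab were not among the genes measured. Among its 15 measured genes, 5 were called higher in Per2-/- and 6 in wildtype I30R60 hearts and 0 after I30 or IP0 in either genotype. Those shared by both genotypes were Dnajb1, Hsph1, Hspb1 and Bag3, of which Hspb1 and Bag3 were named after their values were seen. The chaperone Dnajb1 changed by 2.62 (SE 0.26, adjusted p = 4.66e-06) in Per2-/- and 3.24 (SE 0.26, adjusted p = 5.04e-07) in wildtype I30R60 hearts, Hsph1 by 1.15 and 1.40, both called, and the factor Hsf2 by 0.01 and -0.16, neither called. None of 7 subunits of protein phosphatase 2A was called after any treatment, where 0% to 4.79% of all genes were called, so that 0 of 7 is close to the background. Among 13 other OTU deubiquitinases, 2 were called higher in Per2-/- I30R60 hearts, Tnfaip3 and Zranb1 (0.42), and Tnfaip3 was called higher and Otud4 (-0.33) lower in wildtype I30R60 hearts. After wildtype I30, Otud6a (0.90) was higher and Otulin (-0.45) lower, and 0 were called after IP0 or in Per2-/- I30 hearts. Tnfaip3 (A20), the NF-kB inhibitor of that class, changed by 2.20 (SE 0.27, adjusted p = 4.57e-05) in Per2-/- and 1.68 (SE 0.27, adjusted p = 0.00122) in wildtype I30R60 hearts, and Otud7b and Otulin by -0.07 to 0.14 in these hearts, none called. Zranb1, Otud4 and Otud6a were named after their values were seen. Among 7 serum response, ternary complex and CREB factors, 1 was called higher, Srf itself after wildtype IP0, by 0.36 (SE 0.08, adjusted p = 0.0443), and 1 lower, Elk4 after wildtype I30, by -0.26 (named after its value was seen), and none in Per2-/- hearts.

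The genes whose pattern over the 24 hearts was most like each member, 3 for each member but 2 for Ier3, whose closest gene is not reported here, are given as a description, since the 24 arrays fall into 8 treatment groups. Zfp36 tracked Atf3 (Pearson's r = 0.95), Btg2 (0.95) and Ptgs2 (0.94), and Zfp36l1 tracked Tsc22d1 (0.91), Btg2 (0.90) and Apold1 (0.90). Ier5 tracked Atf3 (0.97), Jun (0.96) and Adamts1 (0.94), Otud1 tracked Jun (0.92), Atf3 (0.92) and Klf6 (0.91), and Ier2 tracked Btg2 (0.87), Egr1 (0.86) and Apold1 (0.85). Ier3 tracked thrombomodulin, Thbd (0.96), and Rgs16 (0.95). The nearest genes of Ier5l were Cav3 (0.80), Luzp1 (0.79) and Fam189a2 (0.79), and those of Zfp36l2 were Hes1 (0.83), Spata13 (0.78) and Fryl (0.70). Among the members, Ier5 and Zfp36 were the closest pair (0.95). With the other 7 members, r ran from 0.30 to 0.57 for Ier5l and from 0.28 to 0.57 for Zfp36l2.

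The 8 genes lie on 6 autosomes of build GRCm38.p6. Ier5 is at chr1:155096367-155099636, and Otud1 and Ier5l are on chromosome 2, at chr2:19657731-19661279 and chr2:30472631-30474199. Zfp36 is at chr7:28376784-28379228, Ier2 at chr8:84661331-84662852 and Zfp36l1 at chr12:80107760-80113013, with Ier3 at chr17:35821713-35822911 and Zfp36l2 at chr17:84183924-84187947.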

How the data were processed

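Per the labels and the study's methods, the authors imported the array files into Partek, normalized them by RMA (background correction, quantile normalization and summarization of probes) and deposited log2 values for 35555 probe sets on 24 arrays, 1 per mouse. RMA compresses low signals, so log2 changes of dim genes can be understated. Probe sets were named through GEO's platform annotation. Of these, 21218 were paired with 1 symbol, 1881 with several and 12456 with none listed, and the probe set with the highest mean stood for each of 18820 genes. The deposited columns hold no comparisons by the authors. All 24 arrays entered 1 limma (3.58.1, R 4.3.3) group-means model with 16 residual degrees of freedom, 22 comparisons and Benjamini-Hochberg adjustment over all genes. The typical gene (median) spread by an SD of 0.172 between arrays of a group and had an SE of 0.137 against sham, and 3 arrays per group limit the precision. The model was run on simulated data with independent normal noise and with changes added to part of the genes in 1 group. These data held no array effects shared between genes, so the run says nothing about such effects.

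The members and lists were chosen with earlier results of these data known. Genes were named by a rule: the members, the first 3 measured genes of each pathway list, the 3 genes most correlated with each member, and Per2. The gene most correlated with Ier3 is not reported here. The alternatives were fits on the compared arrays only, trend and robust moderation, array weights, median centring, quantile normalization, a filter on low genes, probe set averaging, a replicate block, the methods' t-test, stricter thresholds, and omission of arrays. Figures were drawn with matplotlib in Python.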

Additional observations from a re-analysis of the deposited data

How the results depend on the processing

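Across 36 alternative settings, 24 of which left out 1 array, none of the 58 changes called between groups turned its direction, and 28 of them were called under each setting apart from the methods' t-test and the 2 stricter thresholds. Direction could turn only under array weights, median centring, quantile normalization and omission of arrays that were compared. The other settings leave a member's change as it was and bear only on whether it was called. Of the 118 changes not called, 34 took the opposite sign under some setting, none of these over 0.27 in size, and 9 were called under some setting. Centring each array on its median moved the median of all genes by 0.101 in wildtype I30 against sham and by less in the other comparisons; after it 3 members were called after I30 over both genotypes (1 in the reported fit), 2 for wildtype IP0 over I30 (4) and 0 for Per2-/- IP0 over I30 (1). Quantile normalization gave 0, 1 and 0 for the same comparisons.

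Leaving out 1 array at a time gave 0 to 3 members called for wildtype I30 over sham, 4 to 6 for wildtype IP0, 0 to 3 for Per2-/- IP0, 4 to 5 for Per2-/- I30R60, 0 to 2 for I30 and 5 to 6 for IP0 over both genotypes, 0 to 1 for genotype in sham and in I30 hearts, 4 to 7 for wildtype I30R60 over I30, 1 to 5 for wildtype IP0 over I30 and 0 to 3 for Per2-/- IP0 over I30. With only the arrays compared in the fit, which leaves fewer degrees of freedom, 0 members were called for wildtype I30, Per2-/- IP0 and both genotypes I30 over sham, 3 for wildtype I30R60 over I30, and 0 for wildtype IP0 over I30, wildtype I30R60 over IP0 and Per2-/- IP0 over I30. Array weights gave 2 for both genotypes I30 and 4 for Per2-/- IP0 over I30. Keeping only genes above the median, which drops Ier5l, gave 2 and 4 for these and 1 for wildtype I30R60 over IP0.

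The methods' t-test with Benjamini-Hochberg adjustment called 0 members in each of the 12 pairwise comparisons that had calls. In these comparisons it called 0 to 3 of all 18820 genes, so that 0 of 8 is close to the background. Calls over all genes under the other alternative settings are not reported here, so the member counts of this section have no such background beside them. An adjusted p under 0.01 left 0 for wildtype I30, Per2-/- IP0, both genotypes I30, genotype in sham hearts and Per2-/- IP0 over I30, 4 for wildtype I30R60 over I30 and 1 for wildtype IP0 over I30. Requiring a 2-fold change left 1 for wildtype I30, 0, 3 and 4 for both genotypes after I30, IP0 and I30R60, 4 for wildtype I30R60 over I30, 1 for wildtype IP0 over I30 and 0 for wildtype I30R60 over IP0. Without the 4 arrays with atrial transcripts, 0 members were called for wildtype I30, Per2-/- IP0, both genotypes I30, genotype in sham hearts and Per2-/- IP0 over I30, 3 for wildtype IP0 and for both genotypes IP0, and 2 for wildtype IP0 over I30.

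The replicate numbers do not mark a shared animal. Arrays of the same number in different groups deviated together by a mean correlation of 0.0203, against -0.0101 for other numbers, every pair was over 0.1 in 1 of 28 pairs of groups, and 19 of 24 arrays correlated best with their own number, a hint from the data and not from the design. With the number as a block, the Per2-/- IP0 count was 2, Otud1 being at an adjusted p of 0.0594, both genotypes IP0 gave 6 and wildtype IP0 over I30 gave 5, each with Ier2 added, and the other counts of called members were those reported.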
